A study of Mus musculus with 6 samples.

Results

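The 36 genes described here encode nuclear receptors, and all 36 symbols were found among the 23364 symbols of the expression table, as 57 of its 31055 listed transcripts. They are a list of named genes, with no threshold on a measured value, but chosen with earlier results of these data known. A symbol's level is the sum of the RPKM (reads scaled by transcript length and library depth) of its transcripts. Of these genes, 20 have 1 listed transcript and 16 have several. The study sequenced RNA from 2 primary cell types of C57BL/6 mice at postnatal day 1, with 3 libraries each. The osteoblasts, labelled Sp7 positive, came from calvaria, were freed with Liberase TM and were sorted by GFP. The chondrocytes were of wild-type genotype, came from rib cartilage and were freed with Pronase and Collagenase D, and the labels name no sort for them. Cell type, skeletal site, enzyme and sorting therefore differ together and cannot be told apart. The labels do not say whether libraries of a group came from separate animals, so p-values measure the spread between these libraries, which may be technical.

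Nuclear receptors are transcription factors that bind DNA through a zinc finger domain and carry a pocket for a small lipophilic ligand. Receptors for retinoic acid, vitamin D, thyroid hormone and fatty acids pair with a retinoid X receptor (RXR), steroid receptors pair with themselves, and orphan members such as the Nr4a group act without a known hormone. In the skeleton, vitamin D, glucocorticoids, estrogen, thyroid hormone and retinoic acid all act on growth plate and bone through these proteins.

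The labels held in the table. Sp7, the transcription factor named in the osteoblast label, was at 119 ± 13.4 RPKM in osteoblasts and 1.44 ± 0.761 in chondrocytes (SD, n = 3 each), and Col2a1, the cartilage collagen, was at 30.8 ± 6.21 and 37358 ± 10651. A high Sp7 in cells labelled positive for it checks only the assignment of columns. All 8 osteoblast markers examined were higher in osteoblasts and all 8 chondrocyte markers in chondrocytes, but 3 of each (Bglap, Bglap2 and Dmp1; Matn1, Matn3 and Snorc, listed as 3110079O15Rik) passed the filter through their own cell type only. From the steps of low values, 1 RPKM in a transcript of 2 kb was estimated to stand for 53.9 to 71.8 reads, with osteoblast replicate 3 the shallowest library. Pearson correlations over genes on the log2 scale were 0.992 to 0.994 among osteoblast libraries and 0.961 to 0.986 among chondrocyte libraries. Of 11 myeloid and osteoclast markers 8 were tested and all 8 were called higher in osteoblasts, 3 of them (Cd68, Emr1 and Mmp9) having passed the filter through osteoblasts only. The 11 summed to 222.5 to 237 RPKM in osteoblasts and 48.3 to 172 in chondrocytes, mostly Ctsk. The call of Ctsk was lost under 3 scalings, at a threshold of 0.01 and without any single library other than chondrocyte replicate 3. The calls of the other tested myeloid markers were lost under no alternative. Ptprc, the pan-leukocyte marker, stayed at or below 0.345 in every library, with means of 0.304 and 0.0814. Without a filter 10 of the 11, Ptprc among them, were called higher in osteoblasts. Endothelial and muscle markers did not reach the level needed for testing. Chondrocyte replicate 3 had the highest Col1a1, the bone and tendon collagen, of its group (7765 RPKM against 2270.5 and 2259). Of 7 tendon and fibroblast markers 4 were higher in osteoblasts, among them Dpt (27.3 and 0.200 RPKM) and Cd34 (20.8 and 1.02), 2 higher in chondrocytes, Thbs4 (2.28 and 150.3) and Tnmd (26.2 and 166.5), and 1 was not called. Dpt passed the filter through osteoblasts only, and the 7 summed to 630 to 1086 RPKM in osteoblasts and 880.5 to 3050 in chondrocytes. Of 6 erythroid markers 4 were tested and 1, Hba-a1 (18.2 and 6.997), was higher in osteoblasts, a call lost under 3 scalings. Of 5 neural and Schwann cell markers Tubb3 alone was tested (7.29 and 0.0392), having passed the filter through osteoblasts only. The part of these other cell types in the results below was not tested.

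Of the 36 receptors, 24 reached 1 RPKM in at least 3 of the 6 libraries and were tested, together with 11218 genes in all, by limma on log2(RPKM + 1). Genes with a p under 0.05 after Benjamini-Hochberg adjustment over all of these were called, and differences are osteoblast minus chondrocyte on that scale, which understates changes of low genes. The receptors split evenly, with 8 called higher in osteoblasts, 8 called higher in chondrocytes and 8 not called, or 33.3% in each direction. Rarb and Nr2f1 passed the filter through osteoblasts only, and Esr1 and Thrb through chondrocytes only, which fixed their direction. Over all tested genes 55.5% were called higher in osteoblasts and 13.5% higher in chondrocytes (69% either way). Every count of called genes in a list, above and below, is to be read beside these shares. The median difference was 0.13 for the receptors and 0.43 for all tested genes. The tilt of all genes towards osteoblasts depends on scaling: rescaling the libraries by the median of ratios moved the median of all genes by -0.42, and the calls then stood at 30.4% and 30.9%. Under that scaling 7 receptors were higher in osteoblasts, 13 higher in chondrocytes and 4 not called. Without chondrocyte replicate 2, the library least like the others of its group, 9 were called in each direction. The share of all tested genes called in that fit is not given here, and the median difference of all tested genes was 0.37. Each call of a receptor is a statement on RNA per sequenced RNA. In such bulk libraries fewer expressing cells and less RNA per cell cannot be told apart.

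**Figure D1:**
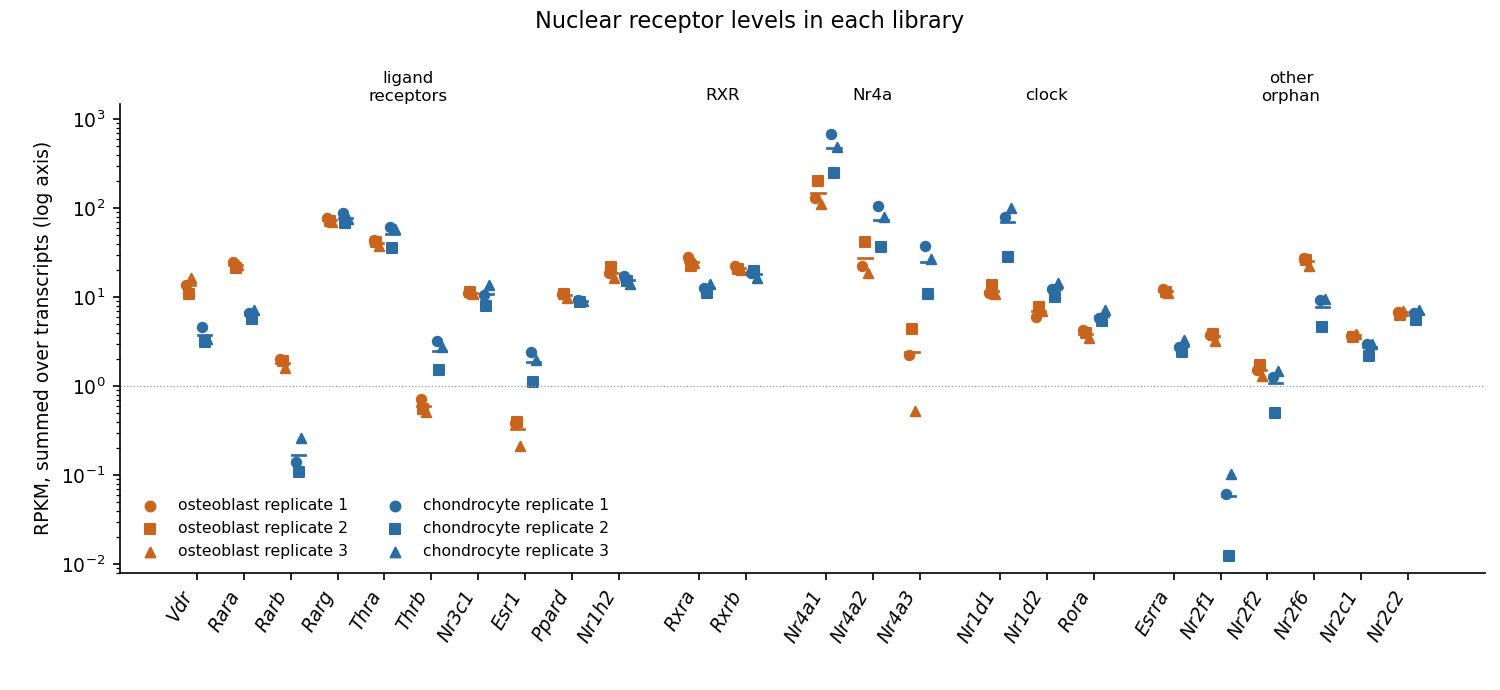
RPKM of the 24 tested receptors in each library, on a log axis, grouped by kind, with points for libraries and short lines for group means (orange osteoblasts, blue chondrocytes, shapes for replicates 1 to 3). Nr4a1 and Rarg were the most abundant receptors in both cell types, and Nr2f1 and Rarb fell under the dotted line at 1 RPKM in every chondrocyte library.

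**Figure D2:**
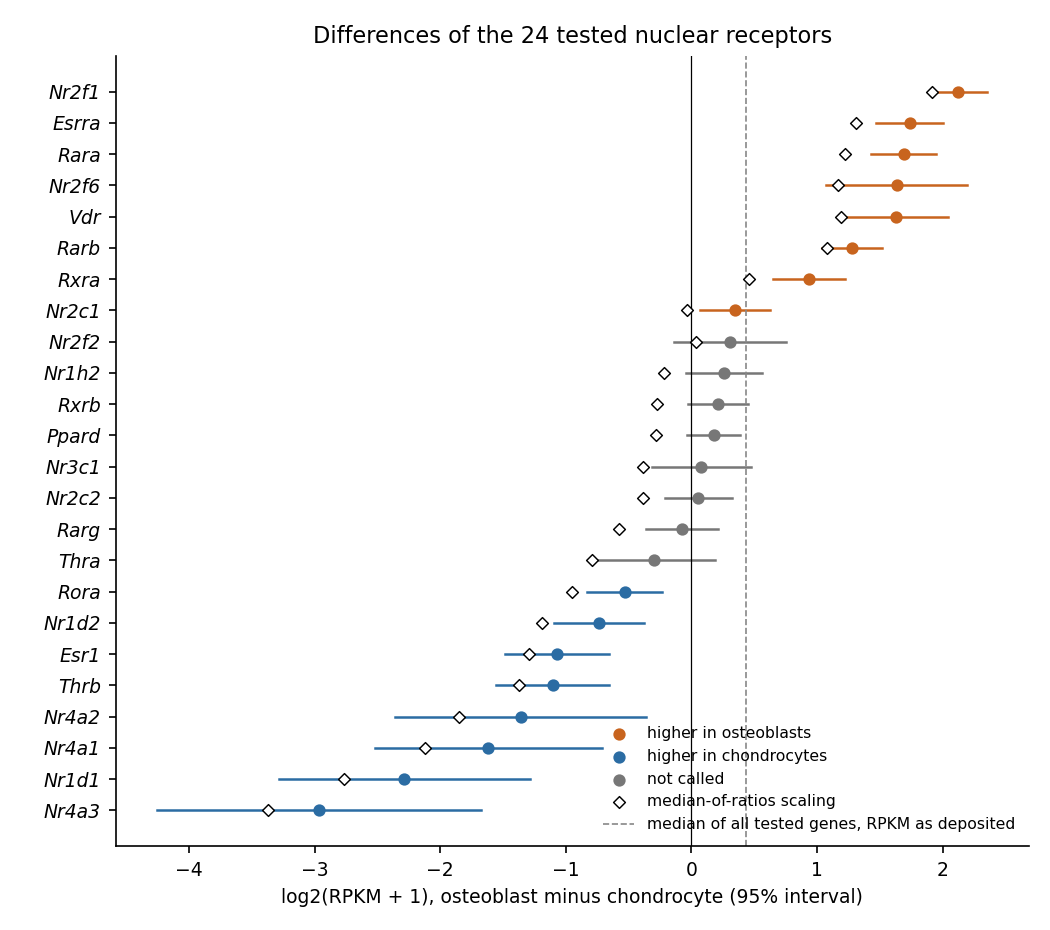
Difference of each tested receptor in log2(RPKM + 1), osteoblast minus chondrocyte, with its 95% interval from limma (orange higher in osteoblasts, blue higher in chondrocytes, grey not called). Open diamonds give the value after median-of-ratios scaling and the dashed line the median of all tested genes at 0.43; every diamond lies left of its point.

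The retinoic acid receptors differed in make-up between the cell types. Their summed level was 97.98 ± 5.35 RPKM in osteoblasts and 83.9 ± 10.1 in chondrocytes (SD, n = 3), and the lowest osteoblast sum lay just above the highest chondrocyte sum (94.32 and 94.25). Rarg made up 74.5% ± 0.922 of the sum in osteoblasts and 92.0% ± 0.947 in chondrocytes, while Rara made up 23.6% ± 1.07 and 7.78% ± 0.860. Such shares do not depend on how libraries are scaled, and neither pair of ranges overlaps. With 3 libraries against 3 an exact permutation test of a single share cannot go below p = 0.1.

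Rara, the broadly expressed retinoic acid receptor, was at 24.9, 21.4 and 23.1 RPKM in the osteoblast libraries and 6.56, 5.72 and 7.22 in the chondrocyte libraries. The groups lie well apart, and the difference was 1.69 ± 0.11 (SE; limma adjusted p = 1.84e-05). Of its listed transcripts 3 were tested singly, and all 3 were higher in osteoblasts, by 1.59 for NM_009024, 1.36 for NM_001176528 and 1.02 for NM_001177303, the last of which passed the filter through osteoblasts only. Rarb, whose own gene is a classical target of retinoic acid, was lower throughout, at 1.99, 1.92 and 1.59 RPKM in osteoblasts and 0.139, 0.107 and 0.261 in chondrocytes (1.28 ± 0.10; limma adjusted p = 4.38e-05). It passed the filter on low values only through the osteoblast libraries, so it could be tested only because it was higher there. Of the exon bases of its listed transcript, 57.7% overlap exons of Top2b on the opposite strand (GENCODE M21), and the sources used here do not give whether counting used strand. Top2b stood at 21.8 ± 0.175 RPKM in osteoblasts and 17.6 ± 1.05 in chondrocytes, itself called higher in osteoblasts (0.29, limma adjusted p = 0.0190). Rarb was at 1.83 ± 0.218 and 0.169 ± 0.0811. The part of Top2b reads in the Rarb values was not tested.

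The retinoic acid response element for which Rarb is known can be read in its promoter. In the RefSeq promoter table (GRCm38.p6, from 250 bases before to 50 after a gene's start, 32851 entries, of which 54 belong to 34 of the receptors) the direct repeat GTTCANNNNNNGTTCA, searched on both strands in the 250 bases before the start, occurs in 22 entries (0.067%), and among the receptors only in that of Rarb. A stretch of 30 bases at chr14:16575506-16575535, on the minus strand, is shown 5′ to 3′ because it holds this repeat, in capitals. It ends 30 bases before the start given there, and the listed transcript starts further upstream, so the stretch lies in the first exon of that transcript.
Rarb: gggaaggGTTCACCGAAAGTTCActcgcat

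Rarg, the receptor that predominates in cartilage and skin, was at 77.2, 72.2 and 69.6 RPKM in osteoblasts and 87.6, 68.4 and 75.8 in chondrocytes. The groups overlap, and the difference of -0.07 (95% interval -0.36 to 0.21; limma adjusted p = 0.607) was not called. After median-of-ratios scaling it became -0.58 (adjusted p = 0.00238), called higher in chondrocytes, so whether total Rarg differed depends on the scaling. Its 2 listed transcripts begin at or within 5 bases of RefSeq starts that lie 11022 bases apart, and encode receptors with different amino ends. The 2 transcripts moved in opposite directions. NM_001042727, from the downstream start, was at 30.2, 29.8 and 31.6 RPKM in osteoblasts and 15.9, 8.28 and 14.4 in chondrocytes (1.23 ± 0.21; adjusted p = 0.00161). NM_011244, from the upstream start, was at 47.0, 42.3 and 38.0 in osteoblasts and 71.7, 60.1 and 61.4 in chondrocytes (-0.59 ± 0.13; adjusted p = 0.00420). Neither pair of groups overlaps, and both calls held in each of the 13 alternatives run on single transcripts, 4 of them scalings. NM_001042727 made up 39.2%, 41.3% and 45.4% of Rarg RPKM in the osteoblast libraries and 18.1%, 12.1% and 19.0% in the chondrocyte libraries, 41.9% ± 3.15 against 16.4% ± 3.75 (SD, n = 3). Only 441 of its 2718 bases and 676 of the 2953 bases of NM_011244 belong to 1 of the 2 transcripts alone. The sources used here do not give how the authors divided reads over the shared bases.

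Of 13162 transcripts tested singly 65.3% were called; 52.2% were called higher in osteoblasts and 13.1% higher in chondrocytes. Of the 57 listed receptor transcripts 31 were tested, with 13 higher in osteoblasts, 9 higher in chondrocytes and 9 not called. The pair of 250-base windows before the starts of Rarg are shown because each precedes 1 of the transcripts that moved apart. Both are on the minus strand, the first at chr15:102257523-102257772, whose start lies 5 bases before that of NM_011244, and the second at chr15:102246501-102246750, directly before NM_001042727. Capitals mark the hormone receptor half-site AGGTCA (either strand; here as TGACCT), which the first window holds and the second does not.
Rarg first start: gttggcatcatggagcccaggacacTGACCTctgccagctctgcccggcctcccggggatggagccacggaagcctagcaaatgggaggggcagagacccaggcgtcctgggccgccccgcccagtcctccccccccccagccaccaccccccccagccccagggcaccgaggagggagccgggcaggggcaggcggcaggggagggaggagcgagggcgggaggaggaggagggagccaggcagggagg
Rarg second start: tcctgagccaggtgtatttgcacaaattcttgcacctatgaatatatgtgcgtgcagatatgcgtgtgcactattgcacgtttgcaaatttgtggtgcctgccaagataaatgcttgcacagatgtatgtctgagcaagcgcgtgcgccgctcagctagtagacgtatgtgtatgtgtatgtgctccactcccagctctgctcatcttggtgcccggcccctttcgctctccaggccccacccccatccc
The first window is 74.4% G and C and the second 52.4%. AGGTCA occurs in 14% of all promoter windows of this length and in 16.7% of those of the receptors. A match here describes the letters of the window, not a bound site.

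**Figure D3:**
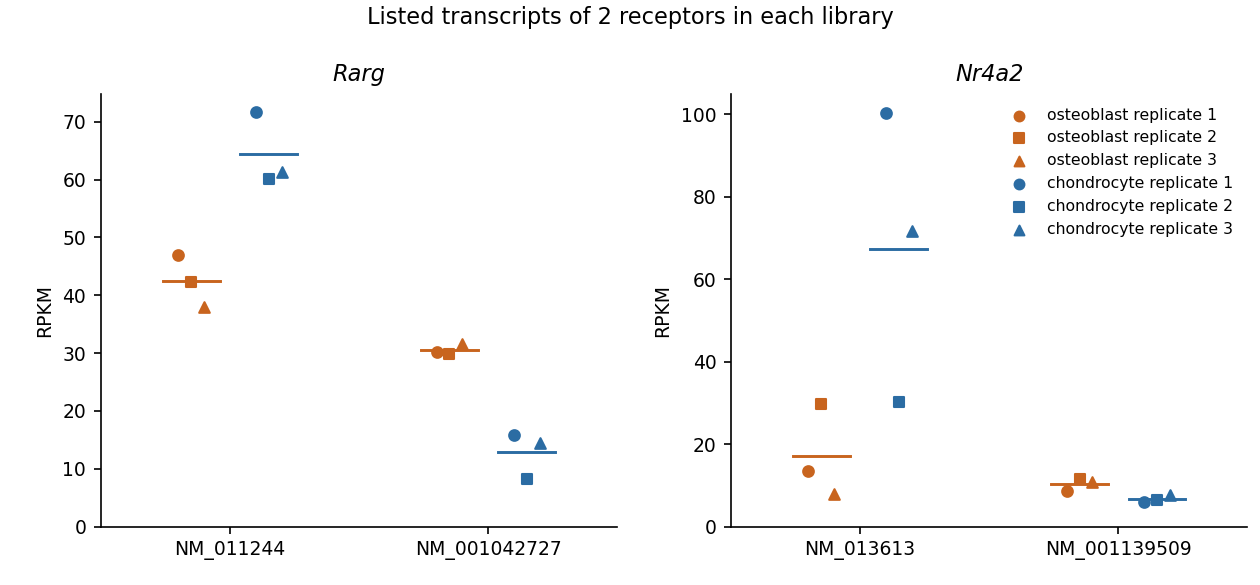
RPKM of the 2 listed transcripts of Rarg (left) and of Nr4a2 (right) in each library, with lines for group means (orange osteoblasts, blue chondrocytes). With RPKM as deposited, the transcript on the left of each panel was higher in chondrocytes and the one on the right higher in osteoblasts; the call of NM_001139509 was lost under 3 scalings.

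The RXRs, the shared partners, differed through Rxra. It was at 28.3, 22.4 and 24.5 RPKM in osteoblasts and 12.5, 11.2 and 14.1 in chondrocytes (0.94 ± 0.12; limma adjusted p = 0.000438), and the groups do not overlap. Rxrb was at 22.4, 20.8 and 20.4 against 18.5, 19.9 and 16.3, a difference of 0.21 (95% interval -0.03 to 0.45) that was not called and that turned to -0.27, also not called, after median-of-ratios scaling. Rxra supplied 53.8% ± 2.00 of summed RXR RPKM in osteoblasts and 40.9% ± 5.07 in chondrocytes. Rxrg, at 0.231 ± 0.118 and 0.00573 ± 0.00958 RPKM, was not tested. One of the 4 listed Rxrb transcripts, NM_001205214, was called higher in osteoblasts (0.40; adjusted p = 0.0225) and the other 3 were not, but at most 177 bases of any of them are its own.

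Genes that handle retinoids moved both ways. Of 14 listed, 8 were tested, and 3 were called higher in osteoblasts, 2 higher in chondrocytes and 3 not, with a median of -0.05. Crabp1, a cytosolic carrier of retinoic acid, was at 19.99, 25.9 and 13.5 RPKM in osteoblasts and 0.281, 0.120 and 1.01 in chondrocytes (3.82 ± 0.28; limma adjusted p = 3.5e-05), and its relative Crabp2 was at 6.30 ± 1.57 and 1.10 ± 0.510 (1.81). Dhrs3, which turns retinal back into retinol, was at 5.58, 5.01 and 3.92 in osteoblasts and 37.2, 35.3 and 27.9 in chondrocytes (-2.56 ± 0.15; adjusted p = 1.19e-05), and Rbp4, the retinol carrier of plasma, at 2.997 ± 1.73 and 17.8 ± 4.67 (-2.29). None of these 4 calls was lost in an alternative. After median-of-ratios scaling 2 were higher in osteoblasts and 4 in chondrocytes. Cyp26b1, which breaks retinoic acid down, was the most abundant gene of the list not called, at 12.7 and 16.7 RPKM.

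Vdr, the vitamin D receptor, was at 13.7, 10.8 and 16.3 RPKM in osteoblasts and 4.65, 3.09 and 3.41 in chondrocytes, 3.66-fold higher in osteoblasts (1.63 ± 0.18; limma adjusted p = 0.000175). Every osteoblast library was above every chondrocyte library. Of 10 genes of vitamin D synthesis, breakdown and response only Tnfsf11, the osteoclast-inducing cytokine RANKL, was tested, at 5.91 ± 1.16 and 0.0601 ± 0.0406 RPKM (2.69; adjusted p = 5.69e-06), and it passed the filter through osteoblasts only. Cyp24a1, the vitamin D breakdown enzyme that the receptor induces, was at 0.00884 and 0.00611 RPKM, below what 1 read gives in 2 kb (0.0139 to 0.0185). No change in it was detectable at this depth.

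Among steroid receptors, Nr3c1, the glucocorticoid receptor, was at 11.1, 11.4 and 10.98 RPKM in osteoblasts and 10.6, 8.02 and 13.5 in chondrocytes. The chondrocyte values enclose the osteoblast ones, and the difference was 0.08 (95% interval -0.31 to 0.47; limma adjusted p = 0.689). It reversed to -0.39 (adjusted p = 0.0278) after median-of-ratios scaling. Of 10 genes of glucocorticoid activation and response 9 were tested, and 5 were called higher in chondrocytes, 1 higher in osteoblasts and 3 not, with a median of -1.18. Per1 (-2.11), a clock gene that glucocorticoids induce and that the clock list below also holds, and Tsc22d3 (-1.82), the anti-inflammatory factor GILZ, showed the largest differences. Sgk1, Klf9 and Hsd11b1, the enzyme that regenerates active glucocorticoid, were the other genes higher in chondrocytes, and no alternative ended any of these 5 calls. Hsd11b1, at 0.367 and 2.10 RPKM, passed the filter through chondrocytes only. Fkbp4, a chaperone of the receptor, was higher in osteoblasts (0.78) but not after median-of-ratios scaling (0.30; adjusted p = 0.218). Errfi1, an inhibitor of the EGF receptor, was the most abundant gene not called, at 46.7 and 42.6 RPKM.

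Chondrocyte replicate 2 was the highest of its group for 4 of these 9 tested genes. Fkbp5, a chaperone that the glucocorticoid receptor strongly induces, was at 11.95, 7.79 and 8.87 RPKM in osteoblasts and at 3.01, 29.6 and 3.52 in chondrocytes. Zbtb16, another glucocorticoid-induced gene, was at 1.63, 9.54 and 0.936 in chondrocytes, Tsc22d3 at 139, 229 and 117, and Sgk1 at 29.98, 43.1 and 27.6. For Nr3c1 itself replicate 2 was the lowest. Fkbp5 and Zbtb16 were singled out after their values were seen, and neither was called. Replicate 2 was the middle chondrocyte library for Per1, Klf9 and Errfi1 and the lowest for Hsd11b1 and Fkbp4.

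Esr1, the main estrogen receptor, was at 0.387, 0.391 and 0.214 RPKM in osteoblasts and 2.43, 1.13 and 1.98 in chondrocytes, 5.58-fold higher in chondrocytes (-1.07 ± 0.18; limma adjusted p = 0.00130). The groups do not overlap, but the gene passed the filter through chondrocytes only. The second estrogen receptor Esr2 (0.0403 and 0.00596 RPKM), the progesterone receptor Pgr (0.00328 and 0.00872) and the mineralocorticoid receptor Nr3c2 (0.0641 and 0.237) were too low to be tested. Of 8 genes of sex steroid metabolism and response, 7 were matched in the table and 5 tested. All 5 were called higher in osteoblasts, with a median of 0.80, beside 55.5% of all tested genes called that way. Hsd17b1 (1.55) and Hsd17b4 (1.26), dehydrogenases of the same reaction with opposite preferred directions, led that list, and Hsd17b1 passed the filter through osteoblasts only. After median-of-ratios scaling 3 of these calls remained and none was called the other way, beside 30.4% of all tested genes called higher in osteoblasts.

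Thra, the main thyroid hormone receptor, was among the 5 most abundant of the 36 in both cell types, at 44.1, 41.5 and 37.1 RPKM in osteoblasts and 61.8, 35.5 and 57.9 in chondrocytes. The difference of -0.30 (95% interval -0.78 to 0.19; limma adjusted p = 0.234) was not called, but became -0.79 (adjusted p = 0.0040) after median-of-ratios scaling. Chondrocyte replicate 2 was the only library of its group below the osteoblast values, and without it the gene was called higher in chondrocytes. Thrb, the second receptor, was at 0.721, 0.554 and 0.506 RPKM against 3.26, 1.53 and 2.73 (-1.11 ± 0.19; adjusted p = 0.00158), and it passed the filter through chondrocytes only. Its share of thyroid receptor RPKM was 1.42% ± 0.162 in osteoblasts and 4.54% ± 0.441 in chondrocytes. Of 7 thyroid hormone genes 3 were tested. Hr, a corepressor induced by thyroid hormone, was at 0.836 ± 0.161 and 14.4 ± 5.57 RPKM (-3.01; adjusted p = 5.05e-05). The hormone transporter Slc16a10 was higher in osteoblasts (1.196) and passed the filter through osteoblasts only.

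Among the fatty acid and sterol receptors, Ppard was at 10.8, 10.8 and 9.70 RPKM in osteoblasts and 9.37, 8.91 and 9.02 in chondrocytes, and Nr1h2, a liver X receptor that senses oxysterols, at 18.5, 21.6 and 16.2 against 17.2, 15.04 and 14.1. Neither was called, with differences of 0.18 (95% interval -0.03 to 0.39) and 0.26 (-0.04 to 0.56), and after median-of-ratios scaling they turned to -0.28 (adjusted p = 0.0192) and -0.22 (adjusted p = 0.160, not called). Ppard made up 95.5% ± 0.740 and 92.0% ± 1.401 of summed PPAR RPKM. The 3 PPARs are receptors for fatty acids and their derivatives. Pparg, the adipocyte regulator, was at 0.0933, 0.267 and 0.140 in osteoblasts and 0.756, 0.690 and 0.539 in chondrocytes, below the filter. The adipocyte gene Fabp4, a PPAR target, was at 0.225, 0.462 and 0.116 against 3.85, 3.01 and 6.64 (-2.07; limma adjusted p = 0.000233), and it passed the filter through chondrocytes only. The 7 adipocyte markers, which include Fabp4, summed to 0.841 to 1.16 RPKM in osteoblasts and 3.46 to 8.77 in chondrocytes, while the defining markers Adipoq, Cidec and Lep did not exceed 0.0242 in any library. Of 15 PPAR and liver X receptor targets 13 were tested, with 5 higher in osteoblasts, 2 higher in chondrocytes and 6 not called, and a median of 0.33 (4 and 4 after median-of-ratios scaling). Angptl4, an inhibitor of lipoprotein lipase (3.03), had the largest difference towards osteoblasts. Scd1, the fatty acid desaturase (-1.18), was higher in chondrocytes beside Fabp4, and its relative Scd2 was the most abundant target not called (74.4 and 70.3 RPKM).

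Of the 3 orphan receptors of the COUP-TF group, which shape the identity of mesenchymal and neural cells, 2 were higher in osteoblasts and the third was not called. Nr2f1 was at 3.75, 3.89 and 3.19 RPKM in osteoblasts and 0.0612, 0.0123 and 0.103 in chondrocytes, and its difference of 2.12 ± 0.10 was, at the pseudocount of 1, the largest towards osteoblasts of the 24 tested (limma adjusted p = 4.69e-06). Its chondrocyte values stand for few reads, and it passed the filter through osteoblasts only. Nr2f6 was at 27.3, 26.3 and 22.1 against 9.19, 4.63 and 9.44 (1.63 ± 0.24; adjusted p = 0.000772). Nr2f2, at 1.51, 1.73 and 1.2999 against 1.26, 0.500 and 1.47, overlapped between groups and was not called in any of the 18 alternatives that tested it. Summed COUP-TF RPKM was 30.4 ± 3.23 in osteoblasts and 8.89 ± 3.26 in chondrocytes.

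Esrra, an orphan receptor that drives mitochondrial genes, was at 12.4, 11.3 and 11.3 RPKM in osteoblasts and 2.74, 2.41 and 3.26 in chondrocytes, 4.15-fold higher in osteoblasts (1.74 ± 0.11; limma adjusted p = 1.80e-05). Its relatives Esrrb and Esrrg did not exceed 0.0225 RPKM in any library. Its coactivators Ppargc1a (0.127 and 1.09 RPKM) and Ppargc1b (0.806 and 0.0977), both untested, lay on opposite sides. The testicular receptors differed little, with Nr2c2 at 6.73 ± 0.330 and 6.46 ± 0.857 RPKM (0.06; adjusted p = 0.680) and Nr2c1 at 3.69, 3.61 and 3.83 against 3.005, 2.19 and 2.95 (0.35; adjusted p = 0.0324). Nr2c1 had the highest adjusted p of the 16 called receptors: its call was lost under all 4 scalings and without each osteoblast library, and its value after median-of-ratios scaling was -0.04. After the same scaling Nr2c2 was called higher in chondrocytes (-0.39; adjusted p = 0.00556). Of the exon bases of Nr2c2, 46.2% overlap Mrps25, at 3.27 and 1.78 RPKM, on the opposite strand.

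Of the tested cofactors of these receptors, none called with RPKM as deposited differed by more than 0.74 on the log2 scale. The untested Ppargc1a was 8.62-fold higher in chondrocytes and the untested Ppargc1b 8.25-fold higher in osteoblasts. Of 16 coregulators 14 were tested, with 4 higher in osteoblasts, 2 higher in chondrocytes and 8 not called, and a median of 0.17. Hdac3 (0.74), the deacetylase of the corepressor complex, and its partner Tbl1xr1 (0.69) were higher in osteoblasts. The coactivators Ncoa2 (-0.45) and Crebbp (-0.39) were higher in chondrocytes. With median-of-ratios scaling 2 were higher in osteoblasts and 8 in chondrocytes, with the calls of Hdac3 and Tbl1xr1 among those that held. Ncoa2 and Crebbp then stood at -0.89 and -0.83, and Hdac3 and Tbl1xr1 at 0.26 and 0.31.

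The Nr4a receptors, immediate early genes induced within minutes to hours by cAMP, growth factors and stress, were all higher in chondrocytes. Nr4a1 was the most abundant of the 36 in both cell types, at 130.2, 202 and 110.2 RPKM in osteoblasts and 689, 249.9 and 493 in chondrocytes (-1.62 ± 0.39; limma adjusted p = 0.00736). The groups do not overlap, although chondrocyte replicate 2 and osteoblast replicate 2 lie close. Nr4a3 was at 2.25, 4.42 and 0.530 against 37.7, 10.96 and 26.7, 10.5-fold higher in chondrocytes. At the pseudocount of 1 it had the largest difference of the 24 tested (-2.96 ± 0.55; adjusted p = 0.00231). As ratios of group means, those of Nr2f1 (61.3-fold) and Rarb (10.9-fold), both towards osteoblasts, were larger. Nr4a2 was at 22.1, 41.2 and 18.7 against 106, 36.6 and 79.3, and here the groups overlap (-1.36 ± 0.43; adjusted p = 0.0234). Its call was lost without osteoblast replicate 1 or 3 or chondrocyte replicate 1 or 3, with adjusted p up to 0.0820. In all 3 genes replicate 2 was the lowest chondrocyte library and osteoblast replicate 2 the highest of its group. The Nr4a group summed to 177 ± 62.6 RPKM in osteoblasts and 577 ± 269 in chondrocytes. Nr4a1 made up 83.7% ± 1.84 and 83.0% ± 0.886 of that sum, and Nr4a3 1.22% ± 0.716 and 4.22% ± 0.466.

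Nr4a2 also has 2 listed transcripts that moved apart. NM_013613 was at 13.6, 29.6 and 7.82 RPKM in osteoblasts and 100.4, 30.3 and 71.7 in chondrocytes (-1.96; limma adjusted p = 0.0134). NM_001139509, which starts 8965 bases upstream, was at 8.54, 11.6 and 10.9 against 5.98, 6.34 and 7.56 (0.57; adjusted p = 0.00876), a call lost under 3 scalings (0.12 and adjusted p = 0.496 after median-of-ratios scaling). Only 321 and 175 bases of these transcripts are their own. The share of NM_013613 was 58.4% ± 15.3 in osteoblasts and 89.2% ± 5.95 in chondrocytes.

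The promoters of the Nr4a genes are shown because all 3 are dense in the short motif TGACG, the CpG-holding core of the binding site of the cAMP-responsive factor CREB. Searched on both strands in the 250 bases before the start, TGACG occurs at least once in 17.8% of the 32851 RefSeq entries and at least 4 times in 45 (0.137%), and Nr4a1, Nr4a2 and Nr4a3 hold 4 each. The count of 4 was taken from these windows, and the entries were not matched for G and C content. As for Rarg, a match describes letters, not a bound site. The full palindrome TGACGTCA, which contains TGACG on both strands, occurs in 1.55% of entries and in none of the receptors. Capitals mark TGACG or its reverse complement CGTCA. The windows are chr15:101266596-101266845 (plus strand) for Nr4a1, chr2:57124004-57124253 (minus) for Nr4a2 and chr4:48045055-48045152 (plus) for Nr4a3, the last cut to 98 bases where an annotated exon begins, with 3 of its 4 copies. The Nr4a2 window precedes the start of NM_001139509, not that of NM_013613.
Nr4a1: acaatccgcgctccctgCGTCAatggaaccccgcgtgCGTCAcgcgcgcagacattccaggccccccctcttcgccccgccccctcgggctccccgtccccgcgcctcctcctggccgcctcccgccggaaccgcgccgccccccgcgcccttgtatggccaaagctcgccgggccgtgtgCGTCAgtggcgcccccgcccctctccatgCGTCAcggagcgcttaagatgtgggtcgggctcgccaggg
Nr4a2: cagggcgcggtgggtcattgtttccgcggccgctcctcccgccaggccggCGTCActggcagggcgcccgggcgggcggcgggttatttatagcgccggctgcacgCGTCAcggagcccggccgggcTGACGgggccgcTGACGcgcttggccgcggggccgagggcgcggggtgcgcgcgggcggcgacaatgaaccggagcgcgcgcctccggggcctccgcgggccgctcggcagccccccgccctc
Nr4a3: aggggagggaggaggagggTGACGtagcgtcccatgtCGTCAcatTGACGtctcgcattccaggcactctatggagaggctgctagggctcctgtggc

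Other immediate early and stress genes did not share one direction. Of 11 genes of a list known to rise during tissue dissociation, 5 were higher in osteoblasts, 2 higher in chondrocytes and 4 not called, and their summed RPKM was 1695 to 2514 in osteoblasts and 1380 to 2391 in chondrocytes. Fos was at 708, 861 and 608 RPKM in osteoblasts and 372, 256 and 284 in chondrocytes (1.26; limma adjusted p = 0.000782), and Ier3 at 67.5 ± 12.4 and 13.6 ± 5.61 (2.30). Ier2 (-0.79) and Atf3 (-1.06; adjusted p = 0.0484) were higher in chondrocytes, as the Nr4a genes were. Fosb, at 144, 239.9 and 126 against 501, 219 and 211, was not called. The calls of Atf3 and Ier2 were lost without osteoblast replicate 3, and that of Atf3 also without osteoblast replicate 1 or chondrocyte replicate 1 or 2. After median-of-ratios scaling Fosb (-1.31) and Egr1 (-0.87) were also called higher in chondrocytes, the calls of Fos and Ier3 held, and those of the other 3 genes higher in osteoblasts (Junb, Dusp1 and Hspa1b) were lost. The part of dissociation in the Nr4a result was not tested.

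The receptors of the circadian clock, Nr1d1 and Nr1d2 (the repressors Rev-erb alpha and beta) and the activator Rora, were all higher in chondrocytes. Levels of the Rev-erbs cycle over the day in many tissues, and the labels give no time of day for either preparation. Nr1d1 was at 11.1, 13.5 and 10.7 RPKM in osteoblasts and 80.1, 28.1 and 100.1 in chondrocytes, 5.90-fold higher (-2.29 ± 0.43; limma adjusted p = 0.00235). Nr1d2 was at 5.97, 7.84 and 7.03 against 12.4, 10.04 and 14.5 (-0.74 ± 0.15; adjusted p = 0.00365), and Rora at 4.29, 3.93 and 3.44 against 5.86, 5.32 and 7.09 (-0.53 ± 0.13; adjusted p = 0.00732). No group pair overlaps, and replicate 2 was the lowest chondrocyte library in each. Rorb did not exceed 0.0162 RPKM.

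Other clock genes leaned the same way in part. All 14 listed were tested, with 5 higher in chondrocytes, 1 higher in osteoblasts and 8 not called, and a median of -0.41. Cry2, a repressor of the clock, was at 9.35, 10.4 and 8.27 RPKM in osteoblasts and 60.6, 39.4 and 51.3 in chondrocytes (-2.30 ± 0.17; limma adjusted p = 2.82e-05), and Per1 and Per2 followed (-2.11 and -1.41). Dbp, an output gene driven, like Nr1d1, by the clock's activators, was at 2.64, 4.22 and 2.82 against 11.3, 3.75 and 15.9 (-1.26; adjusted p = 0.0344). As in Nr1d1, chondrocyte replicate 2 was far below the other 2, and for Dbp it lay within the osteoblast range. Per3 showed the same order, at 4.04, 1.24 and 5.69 in chondrocytes, without a call, whereas Per1 and Per2 did not (88.3, 77.3 and 76.7, and 10.4, 11.2 and 8.55). Arntl, the activator that the Rev-erbs repress, was higher in chondrocytes too (-0.52; adjusted p = 0.0326), and Nfil3, another known target of repression, was higher in osteoblasts (0.73). The call of Dbp was lost without any single library other than chondrocyte replicate 2, that of Arntl without osteoblast replicate 2 or 3 or chondrocyte replicate 1, and that of Nfil3 without osteoblast replicate 1 or 2 and under 3 scalings. Bhlhe40, a repressor, was the most abundant gene not called (59.8 and 98.4 RPKM). After median-of-ratios scaling 10 of the 14 were higher in chondrocytes and none in osteoblasts.

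**Figure D4:**
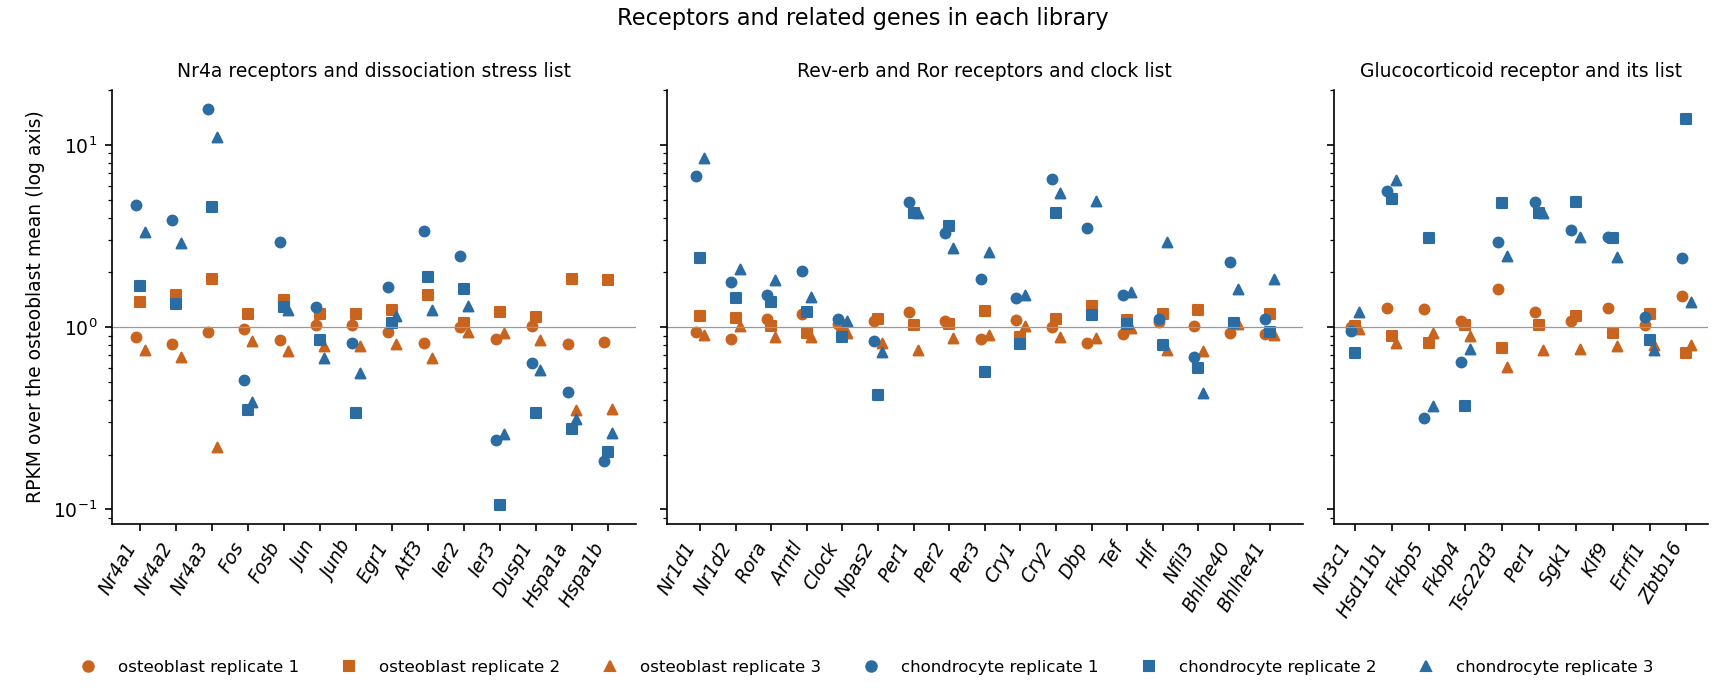
RPKM of receptors and of every tested gene of 3 related lists in each library, over the mean of the osteoblast libraries, on a log axis (orange osteoblasts, blue chondrocytes, shapes for replicates). Blue squares, chondrocyte replicate 2, are the lowest blue points for Nr4a1, Nr1d1 and Dbp and the highest for Fkbp5, Zbtb16 and Tsc22d3.

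The 12 receptors not tested had group means from 0.00255 to 0.662 RPKM. Fitted without a filter (17935 genes, 52.9% called, 41.9% higher in osteoblasts and 11% higher in chondrocytes), 4 of them were called higher in osteoblasts, 2 higher in chondrocytes and 6 not. Those higher in osteoblasts were Rxrg (limma adjusted p = 0.0109), Ppara (0.00358), the oxysterol receptor Nr1h3 (0.0291) and the germ cell factor Nr6a1 (0.00415). Pparg (0.00253) and Nr5a2, which is known from liver and pancreas (0.0114), were higher in chondrocytes. Ppara was at 0.329, 0.324 and 0.336 RPKM against 0.181, 0.128 and 0.077, and Nr1h3 at 0.432, 0.459 and 0.554 against 0.362, 0.066 and 0.142. Nr5a2 stayed at or below 0.0839 RPKM everywhere. Of these 12, 7 had groups that do not overlap, and the matching share of all untested genes is not given here. In Esrrg, among the 7, the nearest values of the groups were 0.00716 and 0.00579 RPKM, both below 1 read in 2 kb. Of the 24 tested receptors 17 had groups that do not overlap, beside 75.6% of all tested genes.

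Of the 16 called receptors 14 kept their call in every alternative that tested them, 7 in each direction. Those higher in osteoblasts were Vdr, Rara, Rarb, Rxra, Nr2f1, Nr2f6 and Esrra, and those higher in chondrocytes Esr1, Thrb, Nr4a1, Nr4a3, Nr1d1, Nr1d2 and Rora. Rarb, Nr2f1, Esr1 and Thrb had passed the filter only through the cell type where they were higher. The fits that left out a library kept the genes tested with all 6. The 36 receptors together summed to 494 ± 66.8 RPKM in osteoblasts and 897 ± 333 in chondrocytes, of which Nr4a1 alone made up 29.4% ± 5.66 and 51.9% ± 5.66.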

How the data were processed

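Each of the 6 libraries is a column of RPKM values per RefSeq transcript in a table deposited by the authors. Per the submitters' processing notes, reads were aligned with TopHat2 2.0.8 to mm9; the counting program, its use of strand and its division of reads between transcripts are not given in the sources used here. Per the labels, libraries were made with a modified TruSeq kit. Every value carries an added 0.0001, and read depth was estimated from the steps of values under 20 reads, of which 57.3% to 59.9% came within 0.05 of whole reads, too few for a count test. Transcripts sharing a symbol were added up, and genes at 1 or more in at least 3 libraries were tested on log2(RPKM + 1) with limma 3.58.1 (R 4.3.3; trend and robust), Benjamini-Hochberg adjusted, after a check on simulated data. The text names all 36 members, and from each of 9 related lists the called genes with the 2 largest differences each way and the most abundant gene not called. A few genes that this rule names are not reported here. Members and lists were chosen with earlier results of these data known. Alternatives covered scaling, pseudocount, filter, moderation, library weights, the replicate block, each library left out, transcript choice and threshold. Promoter sequences and coordinates are those of RefSeq on GRCm38.p6, not mm9.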

Additional observations from a re-analysis of the deposited data

How the results depend on the processing

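Across 19 alternatives the receptors' calls moved with scaling, and also with the library left out, library weights, the replicate block, transcript choice and threshold. After median-of-ratios scaling 13 receptors were called higher in chondrocytes, as were 14 of their single transcripts. The share of all transcripts called under it is not given here, and the transcript scalings were chosen after seeing the data. Of all tested genes 3412 were then called higher in osteoblasts and 3471 in chondrocytes, against 6224 and 1512 with RPKM as deposited. Upper quartile scaling gave 3706 and 3184, an equal total without the 20 most abundant genes 3940 and 2967, and a filter at mean RPKM of at least 5, which tests fewer genes, 4092 and 885, with 5 receptors each way. Among receptors called in either fit, the differences that reversed were those of Nr3c1 (-0.39), Ppard (-0.28), Nr2c1 (-0.0358) and Nr2c2 (-0.39) after median-of-ratios scaling, of Ppard (-0.23) and Nr2c2 (-0.34) after upper quartile scaling, and of Nr2c2 (-0.30) without the 20 most abundant genes. Without a call in either fit, Rxrb and Nr1h2 also changed sign under these 3 scalings (-0.27 and -0.22 after median-of-ratios), Nr3c1 after upper quartile scaling (-0.33), Nr3c1 (-0.29) and Ppard (-0.19) without the 20 genes, Nr3c1 (-0.07) and Nr2c2 (-0.08) with each library at an equal total, both without chondrocyte replicate 2 (-0.10 and -0.04), and Rarg without chondrocyte replicate 1 (0.02). Apart from the smaller gene set of that filter, the cause was not tested. Leaving out 1 library gave 7 to 9 receptors in each direction. The matching shares of all tested genes are not given here, and the median difference of all tested genes was 0.37 to 0.47 in these fits. No pairing by replicate number was seen: same-numbered libraries' deviations correlated at 0.08, 0.01 and -0.16, and differently numbered ones at -0.15 to 0.13. With 3 libraries a group these correlations cannot exclude a pairing. With the replicate block 7 receptors were called each way, 5892 and 1376 genes over all, Nr2c1 and Nr4a2 losing their calls. Precision is limited by 3 libraries a group and, below about 0.0556 RPKM in 2 kb (3 reads in the shallowest library), by depth.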
